A study of Mus musculus with 2 samples.

Results

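The genes of cholesterol synthesis and sterol transport were examined in fetal liver (FL) HSCs lacking ESAM. The rule that chose the group is a list of gene symbols, grouped by known function, and uses no measured value. The list was, however, chosen with earlier results of these data known. Of 33 listed symbols, 32 had a row among the 23284 gene symbols of each library. The remaining symbol, Msmo1, is the current name of Sc4mol, which is listed under the older name, so no listed gene went unmeasured. All 32 genes reached 1 FPKM (a level per kilobase of transcript that is scaled to library size) in at least 1 library and so passed the filter that left 12066 genes in all.

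The RNA-seq compared WT and ESAM-null LSK CD48- cells of the E14.5 FL, the lineage marker-negative, Sca-1+, c-Kit+ fraction that is enriched for HSCs, with 1 library per genotype. ESAM-null fetuses were homozygous for a conventional knockout that removes ESAM, an adhesion protein of HSCs and endothelial cells, from every cell, and the WT fetuses carried no deletion. How many fetuses and cells went into each library was not given in the sources used here. No agent was given to either group. The sample labels place the sorted cells in methylcellulose medium, whereas the study's text describes RNA of sorted FL cells, and the values were used as those of sorted cells. In the study's colony assay this medium held cytokines. Whether the cells of these libraries met them is not settled by the sources used here.

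Cells make cholesterol from acetyl-CoA through mevalonate, farnesyl pyrophosphate, squalene and lanosterol. When sterols in the endoplasmic reticulum are scarce, SCAP escorts the SREBP transcription factors to the Golgi for release and the genes of synthesis are switched on, and when sterols are plentiful, INSIG proteins hold SCAP back. Oxysterols, formed from surplus cholesterol, activate the liver X receptors, which switch on the transporters that carry cholesterol out of the cell. In fetal blood formation these pathways supply membrane to dividing progenitors.

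Since each genotype had 1 library, no difference has a replicate check, no test was possible, and genotype and library cannot be told apart. Esam itself was 9.69-fold lower, with 117.6 FPKM in WT and 12.1 in ESAM-null. The steps between low values gave a library scale of about 9410201 reads for WT and 10168496 for ESAM-null. Approximate reads, which also rest on assumed lengths, summed to 9596758 for WT and 11644381 for ESAM-null. All 8 markers of HSCs and of the sort were above 0 in both libraries, and they summed to 666 and 674 FPKM. Differences are given as the ratio of ESAM-null to WT, with 95% Clopper-Pearson (exact) intervals based on approximate reads. Such an interval covers counting error only, because PCR copies of a molecule are counted as separate reads and no second library shows the spread between fetuses. In bulk RNA, fewer cells of a type and less RNA per cell cannot be told apart.

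The upstream sequences of 5 genes are shown because they hold the motif of the sterol pathway or belong to genes with large differences. Each is the 250 bases before an annotated RefSeq start (GRCm38.p6), written 5′ to 3′ on the gene's strand. Capitals mark TCACNCCA, a core form of the sterol response element that SREBP binds, and CCAAT, the motif of nuclear factor Y, in either orientation (TGGNGTGA and ATTGG on the other strand). The end of the longer motif can overlap the start of the shorter, but no match here did. The first 3 sequences, at chr15:82147019-82147268 on the plus strand, chr13:119690101-119690350 on the plus strand and chr8:64733579-64733828 on the minus strand, belong to the 3 genes, of 26 searched, with both motifs.
Srebf2: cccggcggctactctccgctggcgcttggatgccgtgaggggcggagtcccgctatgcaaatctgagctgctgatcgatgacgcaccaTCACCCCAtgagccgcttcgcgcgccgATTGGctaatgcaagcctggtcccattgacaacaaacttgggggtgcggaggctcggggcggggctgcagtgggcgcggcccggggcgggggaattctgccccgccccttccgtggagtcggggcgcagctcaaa
Hmgcs1: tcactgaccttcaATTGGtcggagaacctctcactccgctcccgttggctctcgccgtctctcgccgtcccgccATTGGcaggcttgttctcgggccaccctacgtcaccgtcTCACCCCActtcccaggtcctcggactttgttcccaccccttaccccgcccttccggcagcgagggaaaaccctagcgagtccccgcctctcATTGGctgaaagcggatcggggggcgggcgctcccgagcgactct
Sc4mol: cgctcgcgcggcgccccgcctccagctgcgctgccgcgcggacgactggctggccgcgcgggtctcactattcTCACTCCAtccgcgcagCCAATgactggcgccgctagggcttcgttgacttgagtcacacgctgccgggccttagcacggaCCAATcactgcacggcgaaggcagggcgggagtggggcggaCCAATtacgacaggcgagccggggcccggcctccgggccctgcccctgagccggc
The other two, at chr5:114444019-114444268 on the plus strand and chr9:42264301-42264550 on the minus strand, belong to the synthesis enzymes with the largest ratio upwards and downwards.
Mvk: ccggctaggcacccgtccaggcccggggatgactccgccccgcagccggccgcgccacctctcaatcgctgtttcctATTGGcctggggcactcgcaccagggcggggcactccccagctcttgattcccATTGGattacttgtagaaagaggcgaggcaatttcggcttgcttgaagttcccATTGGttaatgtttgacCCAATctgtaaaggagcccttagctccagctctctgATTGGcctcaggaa
Sc5d: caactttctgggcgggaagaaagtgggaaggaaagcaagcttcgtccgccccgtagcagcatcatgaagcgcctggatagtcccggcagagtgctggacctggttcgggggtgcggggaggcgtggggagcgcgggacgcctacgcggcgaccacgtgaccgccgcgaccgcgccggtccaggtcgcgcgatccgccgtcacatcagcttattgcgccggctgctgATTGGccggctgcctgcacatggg

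Windows of 300 bases, from 250 before to 50 after a start, were searched for 26 of the 32 genes. TCACNCCA was found in 3 of 26 genes (11.5%), against 4.97% of 27025 genes with such a window. Its first base lay at position -162 from the start in Srebf2, -137 in Hmgcs1 and -177 in Sc4mol. CCAAT was found in 21 of 26 genes (80.8%), against 41.1% of all genes, and stood 5 times in the window of Mvk and 1 time in that of Sc5d. The 5 genes with neither motif were Scap, Acat2, Nr1h2, Nr1h3 and Abca1. A match is a description of the letters and not of binding, and a gene with several starts had more than 1 chance of a match. No window was used for Fdps, Fdft1, Sqle, Abcg1, Npc1 and Stard4.

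**Figure D1:**
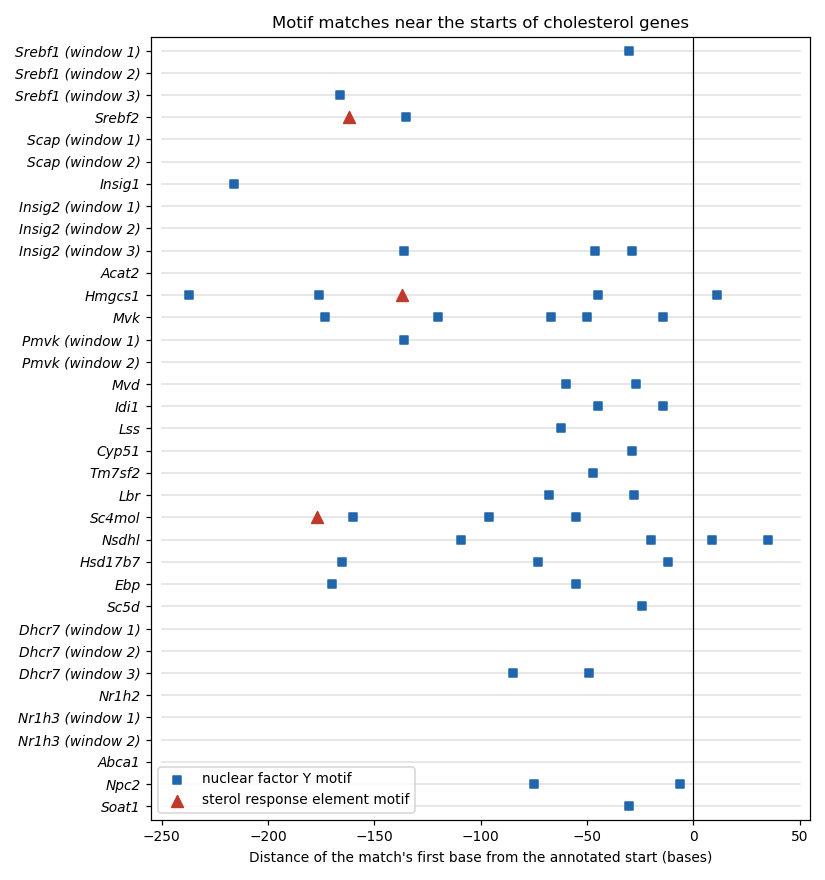
Positions of motif matches, in bases from each annotated start (x axis, start at 0), for the 35 windows of 26 genes (rows). Triangles mark the sterol response element motif, found in Srebf2, Hmgcs1 and Sc4mol, and squares the nuclear factor Y motif, found in 21 genes.

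As a group, the cholesterol genes stood slightly above the other genes in the ESAM-null library, with large differences in both directions for single enzymes. The ratio was above 1 for 20 of 32 genes (62.5%), where 50% of the 12066 genes tested were above 1. The median log2 ratio of the group was 0.25, beside 0.00 over all genes. At least 2-fold lower were 2 genes, Mvd and Sc5d, against a background of 12.8% of all genes, and at least 2-fold higher were 2 genes, Mvk and Nr1h3, against 7.42%. With a threshold of 1.5-fold, 4 genes were lower, where 21.8% of all genes were, and 8 were higher, where 17.4% of all genes were. The counting interval excluded a ratio of 1 for 24 of 32 genes. The share over all genes was not computed. The same held for 7 of 8 markers of HSCs and of the sort, and for 16 of 22 other genes of sterol uptake and transport. The count is therefore not shown to be particular to the cholesterol genes.

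Where the group lies relative to a ratio of 1 depends on how the libraries are set level. Its distance from the median of all genes changed little, because a scaling shifts every gene alike. Rescaling both libraries to the same total FPKM shifted every log2 ratio by -0.28, which placed the median of the cholesterol genes at -0.031 and that of all genes at -0.29, with 14 members above 1 and 18 below. Under this scaling 6 genes with small ratios (Cyp51, Insig1, Nsdhl, Pmvk, Sqle and Tm7sf2) changed direction and Scap, at -1.10, became the third gene past 2-fold lower. Over all genes that passed the filter with equal totals, 2398 were at least 2-fold lower and 674 at least 2-fold higher. The share of all genes above 1 was not computed for this scaling. Scaling by the median ratio, the upper quartile or a trimmed mean moved log2 ratios by -0.02, 0.01 and 0.01 and changed the direction of Dhcr7 only, with the trimmed mean. Directions below are those of the deposited scale.

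Levels covered a wide range. In WT the highest were Lbr (117 FPKM), Nr1h2 (72.8), Fdps (52.0), Srebf2 (44.9) and Npc2 (37.1), and the lowest were Hsd17b7 (2.21), Soat1 (1.55) and Nr1h3 (1.53). Lbr was highest in both libraries. Sc5d went from place 16 of the 32 in WT to place 30 in ESAM-null and Mvd from 17 to 26, while Mvk went from 24 to 14 and Idi1 from 13 to 7. The 19 enzymes of synthesis summed to 435 FPKM in WT and 541 in ESAM-null. All genes together also summed higher in ESAM-null, to 751784 FPKM in WT and 911736 in ESAM-null, a factor of 1.21. Of these 19, 13 were above a ratio of 1 (68.4%), beside 50% of all genes, with a median log2 ratio of 0.25.

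**Figure D2:**
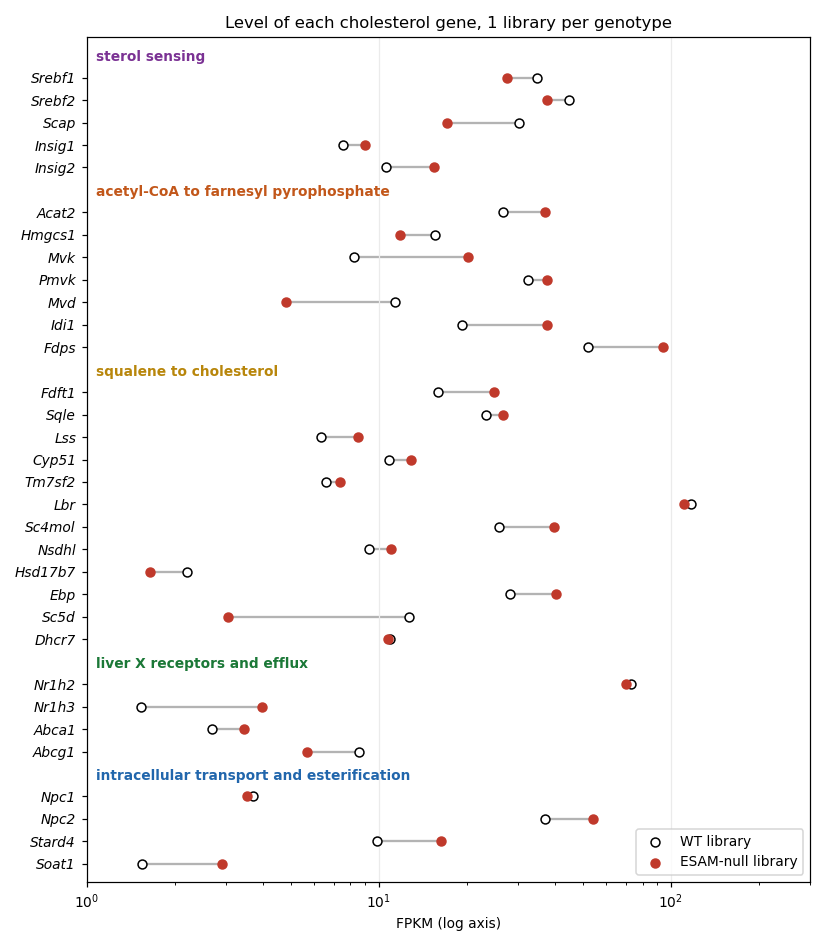
Level of each of the 32 genes in FPKM (x axis, log scale), ordered by role, with an open circle for the WT library and a filled circle for the ESAM-null library. The longest lines join the values of Sc5d (12.7 and 3.06), Nr1h3 (1.53 and 3.97), Mvk (8.25 and 20.1) and Mvd (11.3 and 4.83).

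The sterol sensing genes were split, with the transcription factors and their escort lower in ESAM-null and the INSIG retention proteins higher, although Insig1 crossed below 1 with equal totals, and Srebf2 crossed to 0.052 once the trend with length, GC and level described further on was removed. Scap, the sterol-sensing escort, showed the largest difference of these, with 30.3 FPKM in WT and 17.2 in ESAM-null, 1.76-fold lower (interval 1.60 to 1.94). Srebf2, which encodes the SREBP that mainly drives cholesterol genes, had 44.9 FPKM in WT and 37.6 in ESAM-null, a log2 ratio of -0.25. Srebf1, whose product acts more on fatty acid genes, had 34.7 and 27.5 FPKM, a log2 ratio of -0.34. Insig2 had 10.6 FPKM in WT and 15.4 in ESAM-null, 1.46-fold higher (interval 1.13 to 1.87). Insig1, itself an SREBP target in many cells, had 7.56 and 8.94 FPKM, and its counting interval (0.97 to 1.44) spanned no difference. The median log2 ratio of the 5 genes was -0.25, or 0.052 with that trend removed. About 8.26% of the 75-base windows in Scap transcripts also occur in transcripts of 5830462I19Rik, a transcript on the opposite strand.

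Steps from acetyl-CoA to farnesyl pyrophosphate were higher in ESAM-null for 5 of 7 enzymes, beside 50% of all genes, with a median log2 ratio of 0.48. Under the scaling to equal totals Pmvk crossed to -0.055 and the median was 0.20. The highest ratio was that of Mvk, mevalonate kinase, which phosphorylates mevalonate (chromosome 5, 114444269 to 114460591, plus strand, GENCODE M21 on GRCm38). Mvk had 8.25 FPKM in WT and 20.1 in ESAM-null, 2.44-fold higher (interval 1.96 to 3.07), from about 111 and 293 reads. None of its 75-base windows occurs in another gene's transcripts. Among genes with a mean of 10 to 30 FPKM, as in Mvk, 2.84% were at least 2-fold higher.

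The following kinase, Pmvk, was near level, with 32.4 FPKM in WT and 37.8 in ESAM-null and an interval of the ratio from 0.998 to 1.37. The decarboxylase after it, Mvd (chromosome 8, 122433601 to 122443422, minus strand), went the other way, with 11.3 FPKM in WT and 4.83 in ESAM-null. This was 2.34-fold lower (interval 1.79 to 3.12), from about 170 and 78 reads. Of genes with a mean of 3 to 10 FPKM, as in Mvd, 16.5% were at least 2-fold lower. Thus 2 of the 3 consecutive enzymes that turn mevalonate into isopentenyl pyrophosphate differed by more than 2-fold in opposite directions.

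Idi1, the isomerase that makes dimethylallyl pyrophosphate, had 19.3 FPKM in WT and 37.8 in ESAM-null, 1.96-fold higher (interval 1.76 to 2.18) and just short of the 2-fold line. Fdps, which joins these units into farnesyl pyrophosphate, had 52.0 and 94.2 FPKM, 1.81-fold higher (interval 1.63 to 2.01). Reads of both can be shared with other genes, since 23.6% of the windows of Idi1 and 23.5% of those of Fdps occur in transcripts of other genes. For Fdps, 26.7% of exon bases overlap Gm43738, a protein-coding gene on the same strand, and for Idi1, 9.22% overlap Gm48574 on the opposite strand. At the start of the route, Acat2, the cytosolic thiolase that joins acetyl-CoA units, had 26.7 FPKM in WT and 37.1 in ESAM-null, 1.39-fold higher (interval 1.24 to 1.56). Acat2 shares 33.9% of its windows with other genes, its copy Acat3 and Tcp1. Acat3 had 25.98 FPKM in WT and 47.98 in ESAM-null. Tcp1, far more abundant than Acat2, had 151 and 209 FPKM, 1.38-fold higher. How reads were divided among these genes was not tested. Hmgcs1, the synthase that makes HMG-CoA, had 15.6 FPKM in WT and 11.8 in ESAM-null, 1.32-fold lower (interval 1.15 to 1.51), and 9.79% of its windows are shared. Hmgcs1 was thus below 1 while Sc4mol, the other enzyme with the sterol response element motif, was above 1.

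From squalene to cholesterol, 8 of 12 enzymes were above a ratio of 1, beside 50% of all genes, with a median log2 ratio of 0.22. This median became -0.053 with equal totals as Sqle, Cyp51, Tm7sf2 and Nsdhl crossed below 1. Fdft1, the squalene synthase that commits farnesyl pyrophosphate to sterols, had 16.01 FPKM in WT and 24.8 in ESAM-null, 1.55-fold higher (interval 1.39 to 1.73). Part of its exons overlaps Ctsb on the opposite strand, and 21.8% of its windows are shared. Sc4mol, a methyl sterol oxidase, had 25.7 FPKM in WT and 39.7 in ESAM-null, 1.54-fold higher (interval 1.37 to 1.74). Ebp, the sterol isomerase, had 28.1 and 40.3 FPKM, 1.43-fold higher (interval 1.26 to 1.63). Lss, which closes the rings to lanosterol, had 6.34 and 8.52 FPKM, 1.34-fold higher (interval 1.15 to 1.58). These 4 were the largest upward ratios of the later steps.

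Sc5d, a sterol desaturase near the end of the route (chromosome 9, 42251595 to 42264256, minus strand), showed the largest ratio of all cholesterol genes. It had 12.7 FPKM in WT and 3.06 in ESAM-null, 4.15-fold lower (interval 3.45 to 5.04), from about 547 and 142 reads. Of all genes tested, whatever their level, 5.25% had a lower ratio. Of genes with a mean of 3 to 10 FPKM, as in Sc5d, 16.5% were at least 2-fold lower. No window of Sc5d occurs in another gene. Esam, the deleted gene, also lies on chromosome 9, and whether the ratio of Sc5d is tied to that locus was not tested. The enzymes that act just before and just after it on the route stood apart from it, with Ebp higher and Dhcr7, the reductase that follows, at 10.9 FPKM in WT and 10.8 in ESAM-null (interval of the ratio 0.84 to 1.17).

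The remaining enzymes had ratios within 1.34-fold of level. Sqle, the squalene epoxidase that is an important control point, had 23.3 FPKM in WT and 26.7 in ESAM-null, 1.15-fold higher (interval 1.02 to 1.28). Cyp51, the lanosterol demethylase, had 10.8 and 12.9 FPKM, a ratio of 1.19 (interval 1.04 to 1.37). Lbr, a sterol reductase that also anchors chromatin at the inner nuclear membrane, had 117 and 111 FPKM, a ratio of 0.94 (interval 0.90 to 0.99). The second sterol reductase of that step, Tm7sf2, had 6.59 and 7.36 FPKM, so Lbr made up most of the summed level of the pair in both libraries. Nsdhl and Hsd17b7, which work with Sc4mol in removing methyl groups, had 9.28 and 11.1 FPKM and 2.21 and 1.65 FPKM, with Hsd17b7 1.34-fold lower (interval 0.98 to 1.85). Counting intervals of Tm7sf2, Nsdhl and Hsd17b7 included a ratio of 1.

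**Figure D3:**
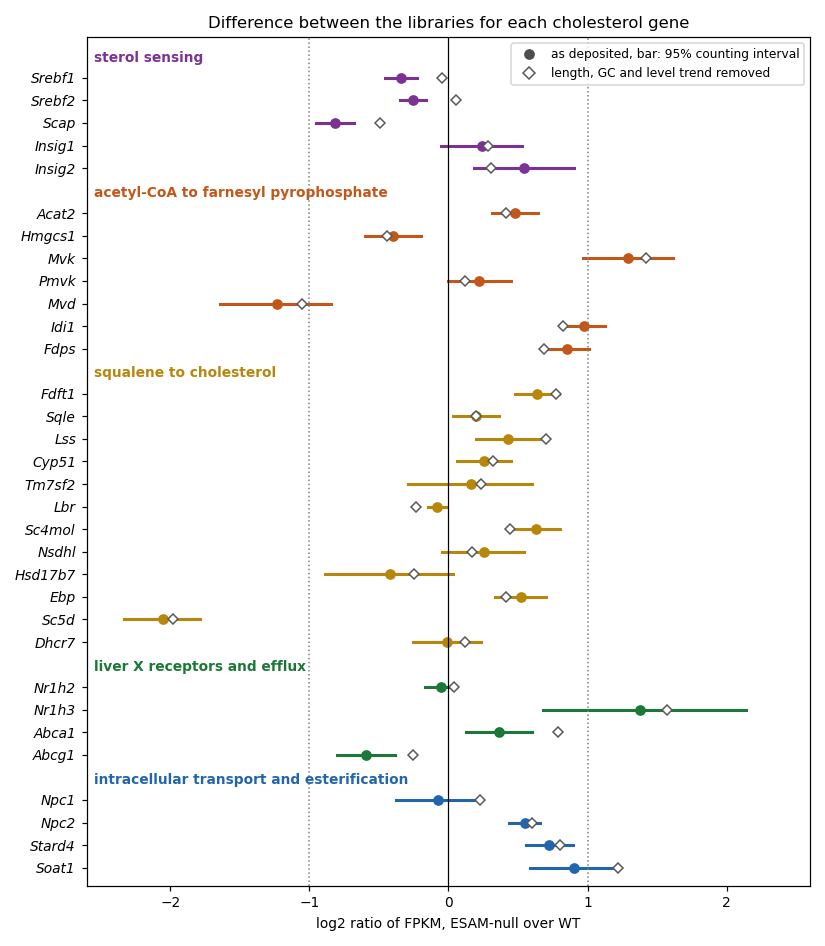
Log2 ratio of ESAM-null to WT for each gene (x axis), with filled circles for deposited values, bars for 95% counting intervals, diamonds for values after removal of the trend with length, GC and level, and dotted lines at 2-fold. Sc5d and Mvd lie below the lower line and Mvk and Nr1h3 above the upper one, and each of these 4 keeps its side of the line with the trend removed.

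Among the liver X receptors and the efflux transporters, the abundant receptor was level and the scarce one was higher in ESAM-null. Nr1h2, which encodes liver X receptor beta, had 72.8 FPKM in WT and 70.0 in ESAM-null, with an interval of the ratio from 0.89 to 1.04. Nr1h3, which encodes liver X receptor alpha (chromosome 2, 91184061 to 91202834, minus strand), had 1.53 FPKM in WT and 3.97 in ESAM-null. This was 2.59-fold higher, but the interval was wide (1.60 to 4.41), since it rested on about 23 and 65 reads. Of genes with a mean of 1 to 3 FPKM, 19.7% were at least 2-fold higher. The transporters, both known targets of these receptors, went opposite ways: Abca1 had 2.68 and 3.45 FPKM, 1.29-fold higher (interval 1.09 to 1.52), and Abcg1 had 8.54 and 5.66 FPKM, 1.51-fold lower (interval 1.30 to 1.74). The median of the 4 genes was 0.15, or -0.12 with equal totals.

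Macrophages are rich in Nr1h3 and Abca1, so macrophage markers were set beside them. Together they reached 15.98 FPKM in WT and 10.6 in ESAM-null. In the ESAM-null library 6 of 9 markers were at 0 and in WT 1 was, and Timd4 was at 0 in both. Of the 3 markers above 0 in both, C1qb had 3.85 and 1.94 FPKM, C1qc 3.38 and 5.07 and Csf1r 2.17 and 3.59, so their directions differed. Hepatocyte markers, from cells that make and export much cholesterol, summed to 9.88 FPKM in WT and 14.2 in ESAM-null. In ESAM-null 6 of 8 were at 0, against 1 in WT, and the sum there came from Afp (4.35 and 6.69 FPKM) and Apoa1 (1.09 and 7.52 FPKM), with Alb at 1.04 FPKM in WT and at 0 in ESAM-null. The 6 markers of maturing erythroid cells summed to 31.2 FPKM in WT and 18.1 in ESAM-null, with Alas2 at 8.08 and 0.28 FPKM, Slc4a1 at 6.08 and 0.47 and Rhag at 3.67 and 6.15, and 1 (Epb4.2) was at 0 in ESAM-null. The 6 endothelial markers summed to 34.9 and 33.0 FPKM but differed among themselves, with Pecam1 at 20.8 and 12.1 FPKM, Tek at 10.9 and 16.3 and Cdh5 at 0.95 and 3.33, and 1 (Lyve1) was at 0 in ESAM-null. The part of other cell types in the ratios of the cholesterol genes was not tested.

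The genes of intracellular transport and storage had the highest median of the 5 roles, a log2 ratio of 0.64, or 0.36 with equal totals. Soat1, which esterifies cholesterol for storage, had 1.55 FPKM in WT and 2.90 in ESAM-null, 1.87-fold higher (interval 1.499 to 2.35). Stard4, a carrier of sterols between membranes, had 9.85 and 16.3 FPKM, 1.65-fold higher (interval 1.47 to 1.86). Npc2, which lifts cholesterol from lysosomal contents, had 37.1 and 54.3 FPKM, 1.46-fold higher (interval 1.35 to 1.58). Its membrane partner Npc1 was level, at 3.71 and 3.53 FPKM, with an interval (0.77 to 1.18) that included 1. The hand-off protein and the membrane protein of lysosomal export therefore had unlike ratios in the same libraries.

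Neighbouring pathways, listed by function, had medians from -0.42 to 0.52. Of 11 measured genes of fatty acid synthesis, 2 were above a ratio of 1, beside 50% of all genes, and 9 were below. None passed 2-fold, where 12.8% of all genes were lower and 7.42% higher by that much. The median log2 ratio of these 11 was -0.29. Acly, which makes cytosolic acetyl-CoA for both fatty acids and sterols, had 47.5 FPKM in WT and 32.5 in ESAM-null, and Fasn, the fatty acid synthase, had 14.497 and 10.9 FPKM. Acaca, the acetyl-CoA carboxylase, had 2.95 and 1.97 FPKM and Gpam, which starts glycerolipid synthesis, had 3.75 and 2.05 FPKM. Scd1, Me1 and Thrsp were listed at 0 in both libraries. None of 11 genes of the branches from farnesyl pyrophosphate to prenylation, ubiquinone and dolichol passed 2-fold, with a median of 0.04. The shares of all genes past 2-fold are those given above for fatty acid synthesis. Fntb, a farnesyltransferase subunit, had 12.3 and 7.995 FPKM, Rabggta 33.3 and 22.7, Pggt1b 6.96 and 9.67 and Pdss1 11.9 and 16.2.

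Of 11 genes for SREBP processing and the sterol-regulated breakdown of enzymes, none passed 2-fold and the median was -0.07. Of all genes, 12.8% were at least 2-fold lower and 7.42% at least 2-fold higher. Rnf145, a ubiquitin ligase of the endoplasmic reticulum, had 39.2 FPKM in WT and 22.4 in ESAM-null, 1.75-fold lower (interval 1.61 to 1.91). March6, another such ligase, had 7.59 and 4.8004 FPKM, 1.58-fold lower (interval 1.36 to 1.84). Both site proteases that cut SREBP, Mbtps1 and Mbtps2, were close to level, at 21.9 and 20.8 FPKM and at 2.29 and 2.27 FPKM.

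Other genes of sterol uptake and transport had the lowest median, a log2 ratio of -0.42. Of 22 measured, 5 were at least 2-fold lower, beside 12.8% of all genes, and 1 was at least 2-fold higher, beside 7.42%. Rxra, a partner receptor of the liver X receptors, had 3.31 FPKM in WT and 0.83 in ESAM-null, 3.997-fold lower (interval 2.25 to 7.68), from about 56 and 15 reads. Stard5, a sterol carrier of the same family as Stard4, had 11.8 and 4.04 FPKM, 2.91-fold lower (interval 2.29 to 3.73). Mylip, a liver X receptor target that degrades lipoprotein receptors, had 12.95 and 5.55 FPKM, 2.33-fold lower (interval 1.93 to 2.82). Osbp and Abca2 were the other two past 2-fold lower, with 14.3 and 6.70 FPKM and 7.35 and 3.67 FPKM. Lrp8, a lipoprotein receptor family member, had 2.30 and 5.48 FPKM, 2.38-fold higher (interval 1.75 to 3.26). Vldlr, a receptor of the same family that lay just under the filter and so was not counted, had 0.99 FPKM in WT and 0.049 in ESAM-null, a ratio of 0.049 (interval 0.010 to 0.16), from about 53 and 3 reads. Of 10 genes of sterol oxidation, 4 were measured. Cyp27a1, which makes an oxysterol, had 33.3 FPKM in WT and 8.11 in ESAM-null, 4.10-fold lower (interval 3.41 to 5.00). Cyp39a1 had 1.12 and 2.36 FPKM, Cyp7b1 4.76 and 8.61, and Hsd3b7 67.4 and 76.5.

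**Figure D4:**
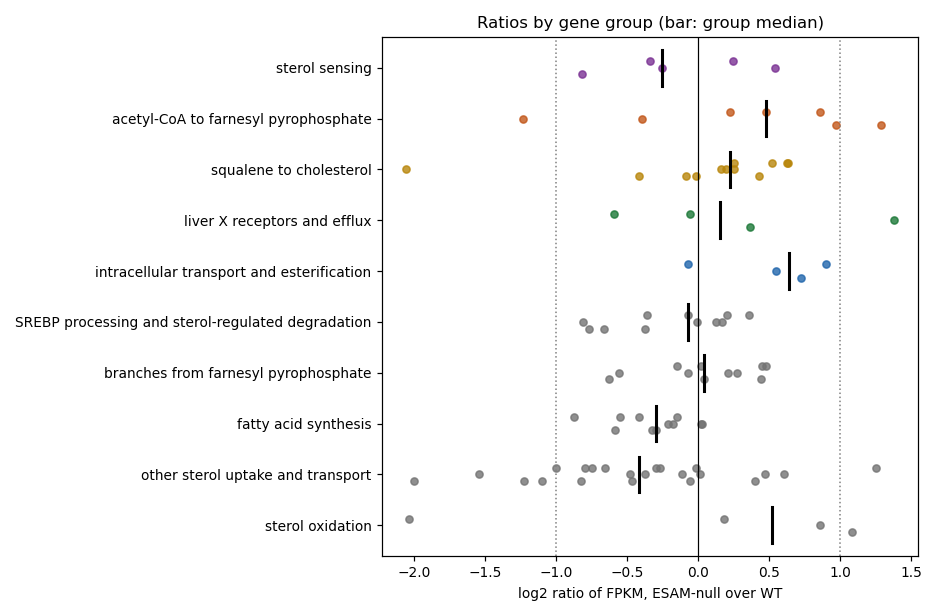
Log2 ratio of ESAM-null to WT (x axis) for each gene (points) in the 5 roles of the cholesterol genes (coloured) and in 5 other lists (grey), with black bars at the medians and dotted lines at 2-fold. The median is highest for transport and esterification (0.64) and lowest for other sterol uptake and transport (-0.42), and points of all lists overlap.

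The ratio also varied with properties of the transcript over all genes. The median log2 ratio was 0.46 for transcripts under 1000 bases and -0.26 for those of 5000 bases or more, and a linear fit over 10566 genes gave a change of -0.17 per doubling of length, -0.22 per 10 percentage points of GC content and 0.04 per doubling of level. For the cholesterol genes, the median was 0.52 for 9 genes of 1000 to 2000 bases, against 0.18 over all genes of that length, and 0.15 for 6 genes of 5000 bases or more, against -0.26. With this trend removed, a step chosen after the data were seen, 24 of 32 genes were above 0 and the median was 0.26, beside 0.01 over all genes. The same 2 genes were past 2-fold lower (Sc5d at -1.98 and Mvd at -1.05) and 3 were past 2-fold higher (Nr1h3 at 1.57, Mvk at 1.42 and Soat1 at 1.22). Of all 11538 genes with a value in this setting, 5829 were above 0, 1003 were past 2-fold lower and 830 past 2-fold higher. The sterol sensing genes moved most as a group, to a median of 0.052. Srebf1, Srebf2 and Scap, with transcripts of 4299, 5077 and 4227 bases, came to -0.044, 0.052 and -0.49. Abca1 came to 0.79 and Abcg1 to -0.25. Of the other lists, the median came to -0.11 for fatty acid synthesis, -0.13 for SREBP processing, 0.086 for the branches from farnesyl pyrophosphate, -0.28 for other uptake and transport and 0.41 for sterol oxidation.

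**Figure D5:**
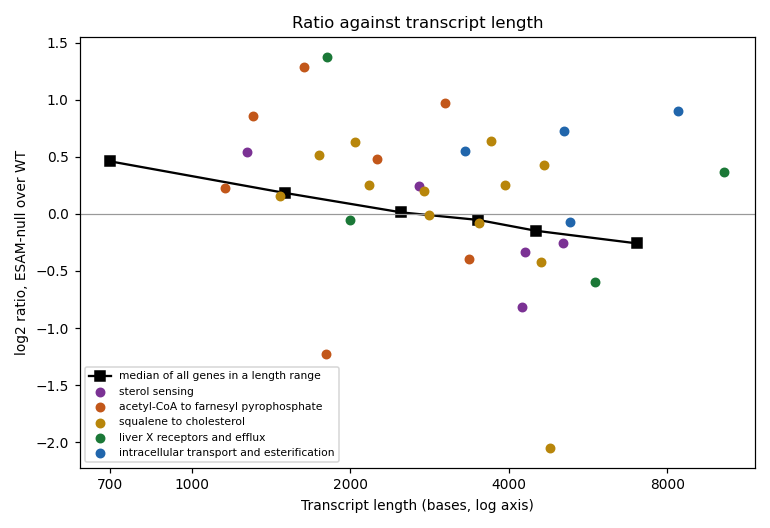
Log2 ratio of ESAM-null to WT (y axis) against transcript length in bases (x axis, log scale) for the 32 cholesterol genes (coloured by role), with black squares joined by a line for the median of all genes in 6 length ranges. The line goes from 0.46 in the shortest range to -0.26 in the longest, and Sc5d and Mvd lie far below it while Mvk and Nr1h3 lie far above.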

How the data were processed

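RNA-seq had been done on 1 WT and 1 ESAM-null library of E14.5 FL LSK CD48- cells, from SMART-Seq v4 cDNA read as 75 bp single ends. The authors deposited FPKM values per gene symbol. Per the submitters' processing notes, the build was mm10 and the tools were Cuffnorm 2.2.1, TopHat2 2.0.13, SAMtools 0.1.19 and Bowtie2 2.2.3. Annotation, library normalization, strand and the handling of reads with several matches were not given in the sources used here. Values of genes with near copies or overlapping exons are therefore uncertain.

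Plain ratios of FPKM were computed for genes that reached 1 FPKM in 1 or both libraries, and a gene was counted at 2-fold or more. Approximate reads are FPKM times effective transcript length (RefSeq and GENCODE M21, found for 98.0% of symbols) over the worth of 1 read, with an assumed fragment length of 200 bp and SD of 80 bp. Low values came within 0.05 of whole reads for 68.8% (WT) and 73.9% (ESAM-null) of genes checked, all with a single transcript. The worth of a read was fitted to these same values, so this closeness is not a separate check. The steps were tested on simulated data. No p-value is given, since there were no replicates.

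The members and gene lists were chosen with earlier results of these data known. Every member was named, and of each other list the counts and up to 4 genes with the largest log2 ratios. Osbp, Abca2, Vldlr, Mbtps1, Mbtps2, Acat3, Tcp1, some cell type markers and the neighbours of members were named after their values were seen. Alternatives were 4 scalings, 2 pseudocounts, 3 filters, 2 thresholds and a trend removal. Software was scipy 1.17.1, pandas 2.3.3 and numpy 2.4.6 on Python 3.11.15, with matplotlib 3.10.9 for figures. Some genes of the pathway and of these lists are not named.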

Additional observations from a re-analysis of the deposited data

How the results depend on the processing

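No paired analysis was possible because each genotype had 1 library. Rescaling to a total of 1000000 FPKM gave medians of -0.031 for all members, -0.53 for sterol sensing, 0.20 for acetyl-CoA to farnesyl pyrophosphate, -0.053 for squalene to cholesterol, -0.12 for liver X receptors and efflux and 0.36 for transport and esterification. With 1 FPKM added, or a filter of 5 FPKM, 1 member was past 2-fold higher, and that filter gave a median of -0.32 for receptors and efflux, since Nr1h3 fell short of 2-fold in the former and Nr1h3 and Abca1 were left out by the latter. Over all genes, 568 were past 2-fold higher with 1 FPKM added and 343 with that filter. Removing the trend with length, GC and level, chosen after the data were seen, gave medians of 0.052 for sterol sensing and 0.41 for receptors and efflux. At 1.5-fold 4 members were lower and 8 higher, and at 3-fold 1 was lower and 0 higher, by construction of the threshold. Over all genes, 877 were lower and 490 higher at 3-fold. Median ratio, upper quartile and trimmed mean scaling, 0.1 FPKM added, and filters at above 0 or at 1 FPKM in both libraries moved none of the 8 counts and medians beyond 1.5 times (counts) or counting error (medians). No member past 2-fold changed direction under any of these scalings or with the trend removed. Of the 32 single-gene ratios, 21 left their counting interval with equal totals, 9 with the trend removed and 1 (Sc5d) with 1 FPKM added. Nr1h3, Hsd17b7, Tm7sf2 and Mvd, with under 100 reads in 1 or both libraries, had the widest counting intervals.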

Other observations

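The annotated start of 5 members faces the start of a protein-coding gene on the other strand within 1000 bases. The neighbours did not all have the ratio of the member they face. Mvk, 2.44-fold higher in ESAM-null, faces Mmab, a gene of cobalamin metabolism, across 209 bases, and Mmab had 10.1 FPKM in WT and 12.8 in ESAM-null. Nr1h3, 2.59-fold higher, faces Acp2, a lysosomal acid phosphatase, across 51 bases, and Acp2 had 4.15 and 4.41 FPKM. Dhcr7, near level, faces Nadsyn1, an enzyme of NAD synthesis, across 296 bases, and Nadsyn1 had 10.6 and 5.35 FPKM. Nsdhl faces Cetn2 (73.0 and 93.7 FPKM) and Npc2 faces Isca2 (104 and 92.7 FPKM). These pairs were looked at after the values of the members were seen.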
